A study of Mus musculus with 8 samples.

Results

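The genes described here are those whose symbols begin with Nduf, which encode the nuclear subunits of respiratory complex I (NADH:ubiquinone oxidoreductase) and proteins that help to build it. They were found as all probe sets that the array's annotation pairs with exactly 1 symbol beginning with Nduf, which gave 88 of 45101 probe sets. These read 44 genes, of which 8 carry Ndufaf symbols and encode assembly factors and 36 encode subunits, among 13257 genes tested. The rule names symbols and no measured value. A further 10 Nduf probe sets are paired with several symbols and were left out. Ndufs6 and Ndufa11 had no probe set of their own by this rule and were not analysed here.

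The hypoxia group was quadriceps muscle of adult male C57Bl/10 mice kept for 2 weeks in a sealed chamber, where oxygen was lowered gradually to 8% from 21% in week 1 and then held at 8% for 7 days. The control group was quadriceps of adult male C57Bl/10 mice kept in room air for the same time. Each group has 4 arrays, 1 per RNA sample, and no genotype or drug differs between them. The labels describe a chamber for the hypoxia mice only and do not say that the samples are separate animals, so chamber and oxygen cannot be told apart and p-values measure the spread between these samples. The muscle is mixed tissue, in which fewer fibres and less RNA per fibre cannot be told apart.

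Complex I takes electrons from NADH, passes them through a flavin and a chain of iron-sulfur clusters to ubiquinone, and pumps protons across the inner mitochondrial membrane. Its matrix arm holds the catalytic core subunits, its membrane arm holds the proton pumps encoded by mitochondrial DNA, and both are wrapped by accessory subunits from nuclear genes. Assembly factors join the modules and are absent from the finished enzyme. In oxidative muscle fibres the complex is the main entry of electrons into respiration.

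Most complex I transcripts were lower after hypoxia. Of the 36 subunit genes 24 fell, 1 rose and 11 did not pass the test, against 18.8% of all 13257 genes that fell and 14.8% that rose by the same test. A gene is said to have fallen or risen where limma gave an adjusted p under 0.05. The median change of the subunit genes was -0.60, beside -0.04 over all genes tested, and 33 of the 36 changes were below 0. Of the 8 assembly factor genes 4 fell, 1 rose and 3 did not pass, with a median of -0.58. A change is the log2 difference, hypoxia minus control, of the MAS5 signal plus 16, a scale that makes changes of dim genes look smaller than they are, and folds are taken from it. It is given with the standard error (SE) of the fit, and levels are the authors' MAS5 signals. Signals of different genes cannot be compared with each other.

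**Figure D1:**
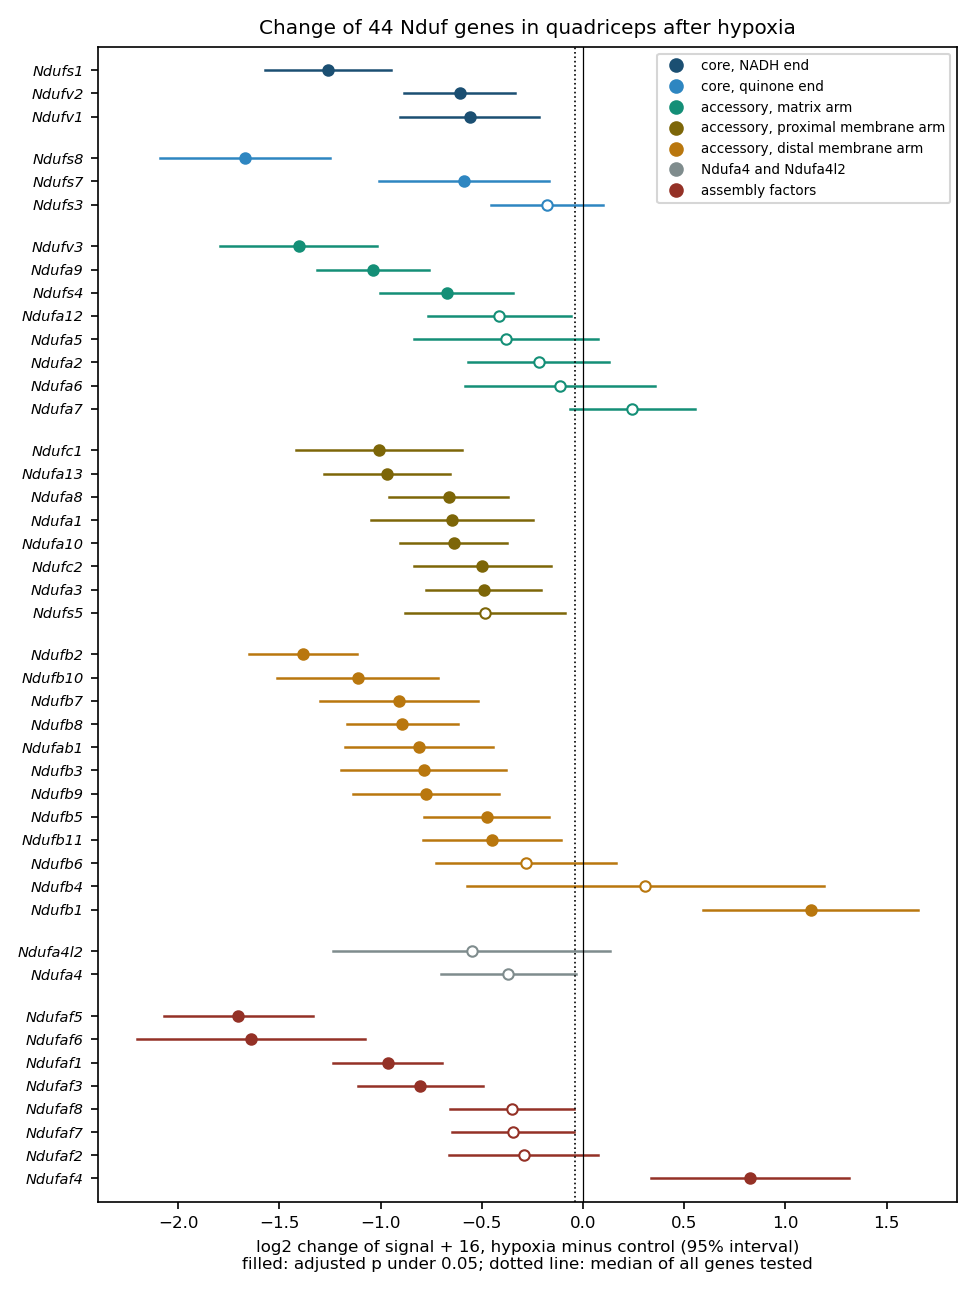
Change of each of the 44 Nduf genes as a log2 difference of hypoxia minus control (x axis, with 95% intervals from limma), grouped by role from top to bottom; filled points passed an adjusted p of 0.05 and the dotted line is the median of all genes tested, -0.04. Of the subunit genes 24 lie to the left with filled points and Ndufb1 alone lies to the right with one, while among the assembly factors Ndufaf4 lies to the right.

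The falls differed in size. Of the 24 subunit genes that fell, 7 fell by 2-fold or more and 5 by less than 1.5-fold. The 4 hypoxia values lay wholly below the 4 control values in 20 subunit genes and wholly above them in 1, where 18.7% and 14.8% of all genes did so. The other 4 genes that fell, Ndufa1, Ndufc2, Ndufs7 and Ndufv1, overlapped because hypoxia 1 reached the lowest control value, while hypoxia 2 to 4 stayed below it.

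Hypoxia 1 stood apart from the other hypoxia arrays. The ratio of signal at the 3' end to that at the 5' end of the Gapdh control transcript was 3.44 in hypoxia 1, against 0.801 to 0.874 in hypoxia 2 to 4 and 0.776 to 0.807 in the control arrays, and for beta-actin it was 2.53 in hypoxia 1, against 1.40 to 1.59 in hypoxia 2 to 4 and 1.09 to 1.25 in the control arrays. The ratio rises when RNA is broken. Among the 36 subunit genes hypoxia 1 gave the highest of the 4 hypoxia values in 25, a share of 69.4%, where it did so for 27.6% of all genes. The median deviation of the subunit genes from their control means was -0.34 in hypoxia 1, -0.64 in hypoxia 2, -0.85 in hypoxia 3 and -0.57 in hypoxia 4, beside -0.07 to 0.01 over all genes. The same median of the assembly factor genes lay between -0.62 and -0.56 in all 4. The part of RNA quality in these differences was not tested. Without hypoxia 1, 29 subunit genes fell and 1 rose, where 18.8% and 14.4% of all genes did, and the 5 genes added were Ndufa4, Ndufa5, Ndufa12, Ndufb6 and Ndufs5. The counts of assembly factor genes did not change without it.

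The tissue label was checked against muscle markers. All 9 fast fibre markers passed the filter, and their summed signal was 296567 to 409541 in hypoxia and 473875 to 573916 in control, with 8 lower, or 2 lower after quantile normalization. Of 7 slow fibre markers 1 fell and none rose, with sums of 8360.1 to 31912 in hypoxia and 17286 to 25045 in control. Markers of other cells moved as well: 5 of 5 fibroblast genes fell (13773 to 17951 in hypoxia, 44572 to 47647 in control), and 2 of 3 tested neutrophil genes, S100a8 and S100a9, rose (2737 to 5013 in hypoxia, 316 to 562 in control), while the defining Ly6g was not tested. Of 7 macrophage genes 1 rose and 2 fell (8429 to 15824 in hypoxia, 9783 to 13832 in control). Of 5 endothelial genes 2 fell, of 2 tested adipocyte genes 2 fell, of 2 tested Schwann cell genes 1 fell, and of 2 tested erythroid genes none passed. The part of fibre types and other cells in the Nduf changes was not tested.

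**Figure D2:**
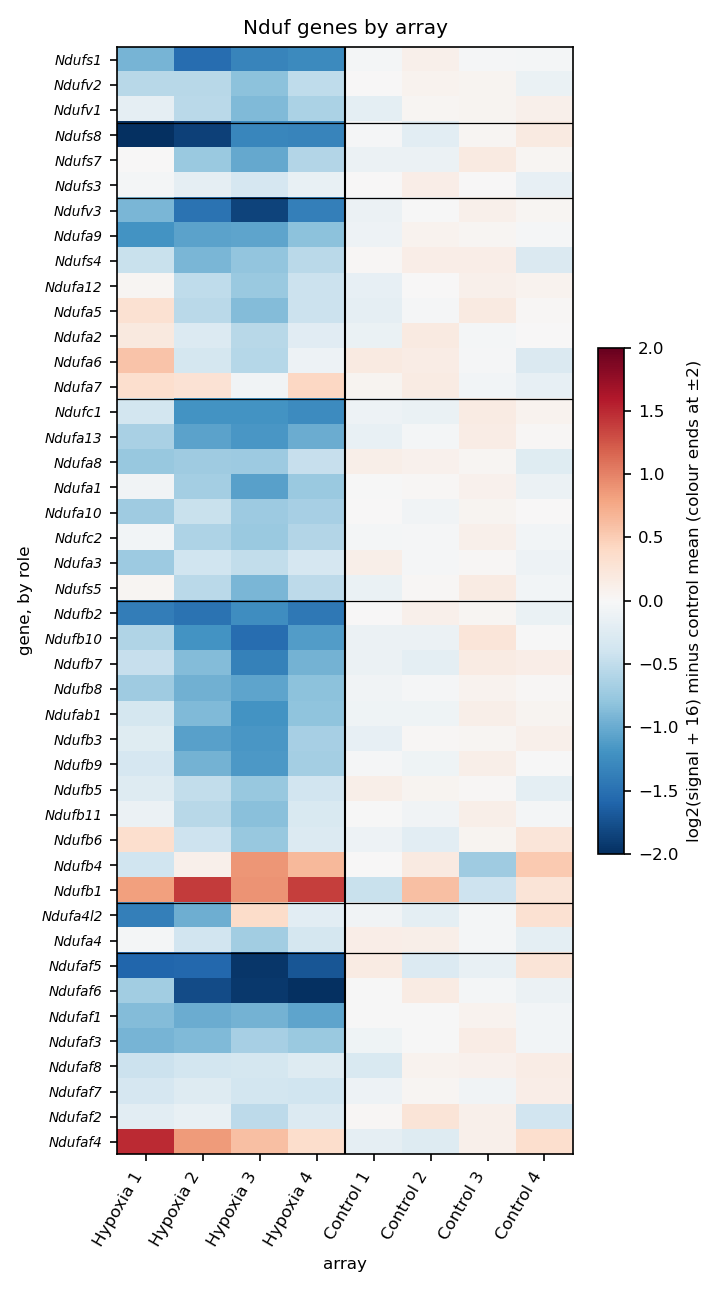
Deviation of each Nduf gene from its own mean over the control arrays on every array (columns, hypoxia 1 to 4 and then control 1 to 4), in log2 units of signal plus 16, with rows grouped by role in the same order as in the plot of changes. The blue of the subunit genes is palest in hypoxia 1 (median -0.34) and deepest in hypoxia 3 (median -0.85), and the rows of Ndufb1 and Ndufaf4 are red in all 4 hypoxia arrays.

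The sequences just upstream of 4 genes are shown, chosen by p and by direction of change. Among subunit genes these are the gene with the smallest p and the gene that rose. Among assembly factor genes they are likewise the gene with the smallest p and the gene that rose. Each sequence is the 250 bases before the gene's start, 5′ to 3′ on the gene's strand, from RefSeq promoters of GRCm38.p6. Capitals mark letters that match known binding motifs on either strand: GCATGCGC for the respiratory regulator NRF1, AAGGTCA for the receptors ERR and their relatives, CCGGAAG for ETS factors such as GABP, AAGATGGC for YY1, and ACGTG or GCGTG for the hypoxia-inducible factors (HIF). Of the HIF letters, ACGTG also lies within the E-box that other factors bind. Ndufb2 fell and lies at chr6:39592315-39592564 on the plus strand, where AAGGTCA is marked.
Ndufb2: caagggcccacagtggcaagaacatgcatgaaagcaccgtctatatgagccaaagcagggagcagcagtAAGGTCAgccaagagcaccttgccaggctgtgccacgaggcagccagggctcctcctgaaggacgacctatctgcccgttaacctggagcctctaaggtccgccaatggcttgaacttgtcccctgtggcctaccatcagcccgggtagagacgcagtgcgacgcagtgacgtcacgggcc
Ndufb1 rose and lies at chr12:101975739-101975988 on the minus strand, with 3 marked HIF matches.
Ndufb1: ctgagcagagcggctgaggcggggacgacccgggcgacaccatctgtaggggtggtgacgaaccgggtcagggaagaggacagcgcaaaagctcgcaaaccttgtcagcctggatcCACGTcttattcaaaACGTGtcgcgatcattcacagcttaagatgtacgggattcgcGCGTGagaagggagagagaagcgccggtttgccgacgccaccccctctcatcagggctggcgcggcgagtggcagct
Ndufaf5 fell and lies at chr2:140170396-140170645 on the plus strand, with 1 marked HIF match.
Ndufaf5: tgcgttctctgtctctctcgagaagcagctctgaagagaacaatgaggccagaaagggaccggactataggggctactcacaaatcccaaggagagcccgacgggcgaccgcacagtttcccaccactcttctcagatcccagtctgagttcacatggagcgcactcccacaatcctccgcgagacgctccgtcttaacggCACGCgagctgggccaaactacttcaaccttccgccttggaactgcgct
Ndufaf4 rose and lies at chr4:24897833-24898082 on the plus strand, where GCATGCGC matches on both strands and the matches overlap.
Ndufaf4: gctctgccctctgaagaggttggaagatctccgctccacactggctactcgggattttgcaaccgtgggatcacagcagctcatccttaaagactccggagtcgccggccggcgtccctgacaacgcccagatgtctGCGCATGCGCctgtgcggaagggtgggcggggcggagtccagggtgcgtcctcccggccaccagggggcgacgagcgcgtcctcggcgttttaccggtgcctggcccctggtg
Of the 44 genes 39 had a promoter in the table, with 41 entries. The NRF1 letters were in 3 of the 39 (Ndufa6, Ndufa8 and Ndufaf4) and in 2.26% of all 32851 promoters. The ERR letters were in 3 of the 39 (Ndufb2, Ndufb4 and Ndufs5) and in 4.08% of all, the ETS letters in 5 and in 6.91% of all, and the YY1 letters in 0 and in 1.56% of all. The HIF letters were in 16 of the 39 and in 38.6% of all. Of the genes with the HIF letters 10 of 16 fell, beside 25 of all 39 with a promoter, and with the NRF1, ERR and ETS letters 1 of 3, 1 of 3 and 2 of 5 fell. A match is a stretch of letters and not a measured site.

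All 3 core subunit genes of the NADH end fell. Ndufs1 encodes the largest core subunit, which carries iron-sulfur clusters, and its signals were 7326, 4841, 5594 and 5775 in hypoxia 1 to 4, against 13622, 14937, 13771 and 13548 in control 1 to 4. The highest hypoxia value, 7326 in hypoxia 1, lay far below the lowest control value of 13548. Ndufs1 fell 2.4-fold, with a log2 change of -1.26 ± 0.14 and an adjusted p = 3.04e-05. Ndufv2, an iron-sulfur subunit beside the flavin, had 20521, 20673, 17062 and 21254 in hypoxia 1 to 4, against 30447, 31761, 31367 and 27484 in control 1 to 4. It fell 1.53-fold (log2 -0.61 ± 0.13, adjusted p = 0.00251) with no overlap, and its other 2 probe sets fell by 0.55 and 0.54. Ndufv1, which binds NADH and the flavin, had 13426, 10393, 8169.5 and 9818 in hypoxia 1 to 4, against 13298, 15542, 15764 and 16189.6 in control 1 to 4. Hypoxia 1 overlapped the lowest control array, and Ndufv1 changed by -0.56 ± 0.16 (adjusted p = 0.0156), a call that median centring ended (-0.48, adjusted p = 0.0928).

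The core genes of the quinone end were uneven. Ndufs8 encodes a subunit with iron-sulfur clusters that lead towards ubiquinone, and its signals were 4332, 5382, 7994 and 7854 in hypoxia 1 to 4, against 19445, 17109, 20346 and 22296 in control 1 to 4. It fell 3.18-fold (log2 -1.67 ± 0.19, adjusted p = 3.54e-05), with hypoxia 1 lowest, and changed by -1.50 without hypoxia 1. Of its 5 other probe sets 4 fell, by 1.38 to 1.81, and 1 changed by 0.05 without passing, so the change of Ndufs8 is uncertain on that probe set. Ndufs7, which holds the last cluster before ubiquinone, had 21921, 12986, 10773 and 14549 in hypoxia 1 to 4, against 20245, 20058, 24872 and 22534 in control 1 to 4. Hypoxia 1 lay within the control values and hypoxia 2 to 4 below them, and the change was -0.59 ± 0.19 (adjusted p = 0.0324), or -0.78 without hypoxia 1. The call of Ndufs7 was lost under median centring (-0.51, adjusted p = 0.121), and its other probe set fell by 0.71. Ndufs3, the remaining core member tested, had 16442, 14782, 13267 and 15195 in hypoxia 1 to 4, against 16998, 18510.0, 16939 and 15053 in control 1 to 4. The groups overlapped, and the change of -0.18 ± 0.13, with an interval of -0.46 to 0.10, did not pass.

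Among the 8 accessory genes of the matrix arm 3 fell, and the others did not pass. Ndufv3, a small subunit at the NADH end, had 10208, 6903, 5278 and 7390.3 in hypoxia 1 to 4, against 17647, 19018, 20562 and 19636 in control 1 to 4. It fell 2.65-fold (log2 -1.40 ± 0.18, adjusted p = 6.96e-05), with hypoxia 1 highest among the hypoxia arrays. Ndufa9 sits where the arms join and binds a nucleotide cofactor, and its signals were 6945, 7551, 7681 and 9023 in hypoxia 1 to 4, against 14942, 16717, 16469 and 15718 in control 1 to 4. It fell 2.05-fold (log2 -1.04 ± 0.13, adjusted p = 5.67e-05) with no overlap. Ndufs4 helps to hold the NADH end in place, and its loss in mice causes a fatal brain disease. Its brightest probe set gave 9666, 6948, 7558 and 8983 in hypoxia 1 to 4, against 13393, 14320.5, 14371 and 10746 in control 1 to 4, which do not overlap, for a change of -0.67 ± 0.15 (adjusted p = 0.00426). Ndufs4 was uncertain across its probe sets: a dimmer one fell by 2.37, another changed by -0.61 without passing, and a further one rose by 2.47, so that the mean of the probe sets, at -0.30, did not pass (adjusted p = 0.146).

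The probe set of Ndufs4 that rose had 914, 855, 934 and 663 in hypoxia 1 to 4, against 104, 163, 176 and 118 in control 1 to 4, so its groups did not overlap in the direction opposite to the brightest one. Ndufa12, Ndufa5, Ndufa2 and Ndufa6, which lie along the matrix arm, changed by -0.41, -0.38, -0.22 and -0.11, and none passed. In these 4 genes hypoxia 1 was the highest hypoxia array, and Ndufa5, for example, had 23715, 13226, 10522 and 14266 in hypoxia 1 to 4, against 16899.8, 18820.3, 21670.1 and 19565 in control 1 to 4. Without hypoxia 1, Ndufa5 changed by -0.61 (adjusted p = 0.00514) and Ndufa12 by -0.56 (adjusted p = 0.00341), and both then passed. Ndufa7 went the other way without passing, at 0.24 ± 0.14 with an interval of -0.06 to 0.55, and its 5 probe sets changed by 0.11 to 0.47, none of them passing.

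**Figure D3:**
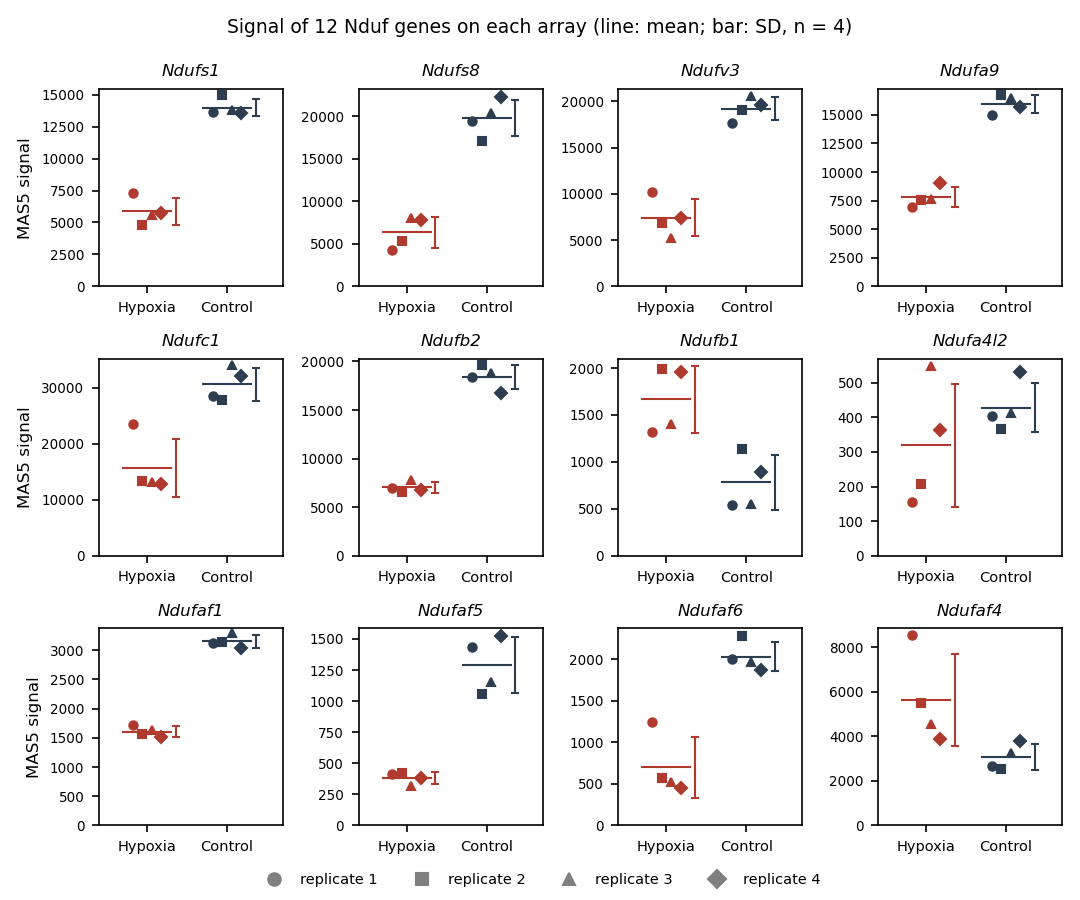
MAS5 signal (y axis, linear and starting at 0) of 12 Nduf genes on each of the 4 hypoxia arrays (left in each panel) and the 4 control arrays (right), with the mean as a line, the SD as a bar and the replicate number as the marker shape. The groups do not overlap in Ndufs1, Ndufs8, Ndufv3, Ndufa9, Ndufc1, Ndufb2, Ndufb1, Ndufaf1, Ndufaf5, Ndufaf6 and Ndufaf4, and they overlap in Ndufa4l2.

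In the proximal membrane arm, next to the matrix arm, 7 of 8 accessory genes fell and 1, Ndufs5, did not pass. Ndufa13, also known as the cell death regulator GRIM-19, had 19560.4, 14568, 13591 and 15331 in hypoxia 1 to 4, against 27528, 29869.9, 34046 and 31159.9 in control 1 to 4. It fell 1.96-fold (log2 -0.97 ± 0.14, adjusted p = 0.000226) on a probe set that can bind related transcripts. Such probe sets stood for 9 of the 44 genes, the others being Ndufa2, Ndufa3, Ndufa12, Ndufab1, Ndufaf7, Ndufb11, Ndufc2 and Ndufv1. Ndufc1, a small membrane subunit, had 23550.4, 13304, 13262 and 12806 in hypoxia 1 to 4, against 28485, 27901, 34089 and 32078 in control 1 to 4. It fell 2.01-fold (log2 -1.01 ± 0.19, adjusted p = 0.00128), hypoxia 1 lay well above the other hypoxia arrays, and without it the change was -1.22. Ndufa10, which resembles nucleoside kinases, had 9178, 10960.2, 9063 and 9415 in hypoxia 1 to 4, against 15069, 14283, 15638 and 15017 in control 1 to 4, and it fell 1.56-fold (log2 -0.64 ± 0.12, adjusted p = 0.00149). Its hypoxia values lay close together and clear of the control values, and its other probe set also fell. Ndufa8, which faces the intermembrane space, fell 1.58-fold, Ndufa1 1.56-fold, Ndufc2 1.41-fold and Ndufa3 1.41-fold. Ndufa3 was uncertain, since a dim probe set changed by 0.55 without passing and the mean of its probe sets did not pass (-0.13, adjusted p = 0.517). Ndufa1 (-0.56, adjusted p = 0.0752) and Ndufc2 (-0.42, adjusted p = 0.133) did not pass after median centring. On other probe sets, without centring, Ndufc2 fell by 0.67 and 0.89, and a dim one changed by -0.52 without passing.

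The distal membrane arm, which ends in the far proton pumps, held 9 genes that fell, 1 that rose and 2 that did not pass among 12. Ndufb2, whose promoter is shown above, had 7024, 6562, 7796 and 6811 in hypoxia 1 to 4, against 18399, 19646, 18847 and 16740.0 in control 1 to 4. It fell 2.61-fold (log2 -1.38 ± 0.12) with the smallest p of the 44 genes (adjusted p = 4.43e-06), and hypoxia 1 did not stand apart in it. Of its other probe sets 1 fell by 1.64 and a dim one changed by -0.39 without passing. Ndufb8, a subunit widely used to gauge assembled complex I, had 14792, 12513, 11651 and 13712 in hypoxia 1 to 4, against 23162, 23844, 25650.0 and 24799 in control 1 to 4, and fell 1.86-fold (log2 -0.89 ± 0.13, adjusted p = 0.000157). Ndufb10, which faces the intermembrane space, had 12574, 8307, 6611 and 8742 in hypoxia 1 to 4, against 17599, 17561, 22538 and 19029 in control 1 to 4. It fell 2.16-fold (log2 -1.11 ± 0.18, adjusted p = 0.000489) with no overlap. Ndufb7 fell 1.88-fold, Ndufb3 1.73-fold, Ndufb9 1.71-fold, Ndufb5 1.39-fold and Ndufb11 1.37-fold. Ndufab1, the mitochondrial acyl carrier protein that sits in complex I and also serves fatty acid synthesis, fell 1.75-fold. Median centring ended the calls of Ndufb5 (-0.39, adjusted p = 0.108) and Ndufb11 (-0.37, adjusted p = 0.177). On their other probe sets, without centring, Ndufb5 fell by 0.60 and Ndufb11 by 0.47 and 0.64. The calls of Ndufb5, Ndufb11, Ndufc2 and Ndufs7 were also lost when hypoxia 2 alone was left out (limma adjusted p = 0.0517, 0.11, 0.0746 and 0.0901), and when certain other arrays were, but never when hypoxia 1 was.

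Ndufb1, a small subunit of the same arm, was the 1 subunit gene that rose. Its signals were 1320.2, 1988, 1402 and 1963 in hypoxia 1 to 4, against 539.9, 1142, 551 and 896 in control 1 to 4, so that every hypoxia array exceeded every control array, although control 2 came close to hypoxia 1. The means were 1668 ± 356 in hypoxia and 782 ± 291 in control (SD, n = 4 each), a 2.18-fold rise with a log2 change of 1.12 ± 0.24 and an adjusted p = 0.00337. It was read by 1 probe set, so no other probe set of it could be set beside this rise. Ndufb6 changed by -0.28 without passing on its brightest probe set and fell by 0.63 on its other one. Ndufb4 was read only by a dim probe set, at 115 ± 48.7 in hypoxia and 88.6 ± 34.1 in control (SD, n = 4 each), near the signal of 90.2 at the filter, and its change of 0.31 ± 0.41 says little.

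Ndufa4 and Ndufa4l2 were counted with the subunits by symbol. The protein of Ndufa4 is now placed in cytochrome oxidase, and Ndufa4l2 is known as a target of HIF that lowers respiration in hypoxic cells. Ndufa4 had 21906, 17335, 13956 and 17737 in hypoxia 1 to 4, against 24696, 24476, 22012 and 19675 in control 1 to 4. Hypoxia 1 lay among the control values, and the change of -0.37 ± 0.15 did not pass (adjusted p = 0.0848), but it did without hypoxia 1 (-0.48, adjusted p = 0.0155). Ndufa4l2 was dim, with 154, 208, 549 and 365 in hypoxia 1 to 4, against 404, 367, 412 and 529.7 in control 1 to 4. Hypoxia 1 and 2 were the lowest arrays and hypoxia 3 the highest, so that the groups overlapped. Its change was -0.55 ± 0.32, with an interval of -1.23 to 0.14 that includes 0 (adjusted p = 0.207), and leaving out hypoxia 3 alone gave -0.85 with an adjusted p = 0.0276. Without these 2 genes the subunits numbered 34, of which 24 fell and 1 rose, with a median of -0.62.

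The 8 assembly factor genes did not move as 1 block. Ndufaf5 encodes an enzyme that hydroxylates Ndufs7 during assembly, and its signals were 417, 419, 319 and 379 in hypoxia 1 to 4, against 1431, 1057, 1151 and 1528 in control 1 to 4. It fell 3.25-fold (log2 -1.70 ± 0.17, adjusted p = 1.06e-05), with all hypoxia values close together. Ndufaf8, the partner that stabilises Ndufaf5, had 2589.7, 2712, 2715 and 2902 in hypoxia 1 to 4, against 2805, 3672, 3715 and 3854 in control 1 to 4. Its change of -0.35 ± 0.14 did not pass (adjusted p = 0.0734), hypoxia 4 exceeded control 1, and without control 1 the change was -0.46 with an adjusted p = 0.0294. Ndufaf6, which acts early in the building of the membrane arm, had 1248, 574, 519 and 447 in hypoxia 1 to 4, against 2004, 2278, 1965 and 1875 in control 1 to 4. It fell 3.11-fold (log2 -1.64 ± 0.26, adjusted p = 0.000374), and hypoxia 1 was well above the other hypoxia arrays but below all control arrays.

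Ndufaf1 belongs to the assembly complex of the inner membrane that builds part of the membrane arm. Its signals were 1714, 1571, 1636 and 1506 in hypoxia 1 to 4, against 3131, 3139.8, 3292 and 3038 in control 1 to 4, with little spread in either group, and it fell 1.95-fold (log2 -0.97 ± 0.13, adjusted p = 8.16e-05). Ndufaf3 and Ndufaf4 act together on the part of the matrix arm at the quinone end. Ndufaf3 had 598, 620.2, 727 and 684 in hypoxia 1 to 4, against 1093, 1152, 1279 and 1107 in control 1 to 4, and fell 1.74-fold (log2 -0.80 ± 0.14, adjusted p = 0.000816) with no overlap. Ndufaf4 had 8570.0, 5484, 4573 and 3880.2 in hypoxia 1 to 4, against 2664, 2530.2, 3248 and 3812 in control 1 to 4, so that hypoxia 4 exceeded control 4 only narrowly and hypoxia 1 was highest. It rose 1.77-fold (log2 0.83 ± 0.23, adjusted p = 0.0128) on this probe set, while its other one changed by -0.05 and the mean of both did not pass (0.39, adjusted p = 0.0692), so the rise of Ndufaf4 is uncertain. Ndufaf7, which encodes a mitochondrial methyltransferase, had 648, 682, 630.0 and 618 in hypoxia 1 to 4, against 764, 847, 784 and 899 in control 1 to 4, and the groups did not overlap although the change of -0.34 ± 0.14 did not pass (adjusted p = 0.0763). Ndufaf2, a relative of Ndufa12 that acts late, had 889, 929, 713 and 854 in hypoxia 1 to 4, against 1049, 1241, 1110.1 and 794 in control 1 to 4. Its groups overlapped, and its change of -0.29 ± 0.17 did not pass (adjusted p = 0.208).

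**Figure D4:**
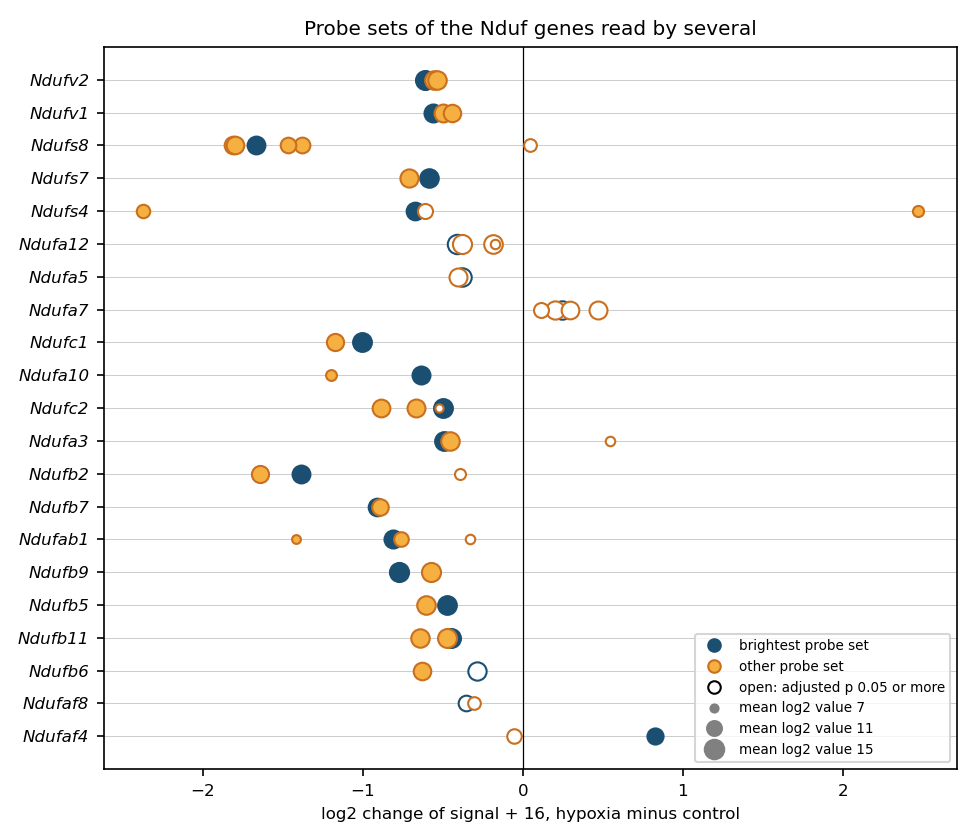
Log2 change of hypoxia minus control (x axis, signal plus 16) of every probe set of the 21 Nduf genes that have more than 1 past the filter on dim probe sets; blue marks the brightest probe set of a gene, orange the others, open points did not pass an adjusted p of 0.05 over all probe sets, and larger points are brighter. Ndufs4 has points on both sides of 0 at -2.37 and 2.47, and Ndufs8, Ndufa3 and Ndufaf4 each have 1 point across 0 from the brightest.

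Of the 88 Nduf probe sets 85 passed the filter on dim probe sets, and with every probe set as a unit of the test 52 of them fell and 3 rose, where 16.4% and 12.5% of all probe sets did. Of the 21 genes with more than 1 such probe set, 17 had all their changes on the same side of 0. The exceptions were Ndufs4, Ndufs8, Ndufa3 and Ndufaf4, as given above.

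Assembly genes with other symbols were also lower in part. From a list of 12 such genes 11 were tested, of which 6 fell and none rose, with a median of -0.56. Timmdc1, which handles the membrane arm, had 144, 153, 183 and 161 in hypoxia 1 to 4, against 535, 554, 670.3 and 840.4 in control 1 to 4, a 3.73-fold fall (log2 -1.90 ± 0.19, adjusted p = 1.13e-05). Tmem126b, Acad9 and Ecsit, partners of Ndufaf1 in the inner membrane, fell 2.81-fold, 2.56-fold and 2.2-fold. Tmem126a fell 2.09-fold and Tmem70, which serves complex I and ATP synthase, 1.48-fold. Tmem186 (-0.28), Nubpl (-0.47), Foxred1 (-0.16), Dmac1 (-0.10) and Aifm1 (0.17) did not pass. Of the 7 subunits encoded by mitochondrial DNA 1 was tested, ND5, with 47099.8, 36614, 33332 and 39132 in hypoxia 1 to 4, against 48152, 55386, 50846 and 47263 in control 1 to 4. Its change of -0.38 ± 0.14 did not pass (adjusted p = 0.0503), but it did without hypoxia 1 (-0.47, adjusted p = 0.00637). After quantile normalization the change of ND5 was -0.034 and after median centring -0.30, and neither passed.

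Genes of the other respiratory complexes were counted beside these, and no difference between complexes was tested. All 4 complex II genes fell (median -0.79), as did 11 of 21 genes of complexes III and IV (median -0.51) and 11 of 15 of ATP synthase (median -0.54), and none of these rose. For complexes III and IV the median was -0.30 after quantile normalization, beside 0.04 over all genes. After median centring 7 genes of complexes III and IV fell, 8 of ATP synthase and all 4 of complex II. Of all genes 15.9% then fell. Among 7 regulators of respiratory genes 3 fell and 1 rose. Perm1, a muscle regulator that acts with PGC-1 and ERR, had 545, 608, 775 and 695 in hypoxia 1 to 4, against 2883, 2527, 2726 and 2425 in control 1 to 4, a 3.98-fold fall (log2 -1.99 ± 0.15, adjusted p = 1.11e-06), and 1 other probe set of it changed in the opposite direction, so it is uncertain. Ppargc1b, which encodes a PGC-1 coactivator, had 20.7, 51.4, 233 and 113 in hypoxia 1 to 4, against 1080.3, 944, 708 and 1152 in control 1 to 4. The groups did not overlap and Ppargc1b fell (adjusted p = 0.000111), but hypoxia 1 and 2 lay below the filter's signal of 90.2, so the size of its change, -3.36 ± 0.45, or -2.91 without hypoxia 1, is loose. Esrra, which encodes ERR alpha, fell 2.32-fold, and Gabpa, which encodes a part of GABP, rose 1.53-fold. Esrra has 1 other probe set with a change in the opposite direction. Nrf1 (0.07), Tfam (-0.19) and Ppargc1a (0.35) did not pass, and 1 other probe set of Nrf1 and 4 of Ppargc1a changed in the opposite direction.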

How the data were processed

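Total RNA of quadriceps was read on whole-genome mouse arrays of Affymetrix. The authors deposited linear MAS5 intensity values, 1 for each probe set and array. MAS5 is named by the submitters' processing notes, with version and settings not given in the sources used here. Each array had a 2% trimmed mean near 500.0, so their scaling was left as it is. Under scaling to a shared mean a change in the brightest transcripts moves all others slightly, bright probe sets can saturate, and 4 arrays per group limit the precision. No arrays held identical values.

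Titles of the samples gave the groups. From 45101 probe sets 64 controls were dropped, as were the dimmest 40% of the rest by mean log2 value, which left 27022 and a signal of 90.2 at the filter. Symbols from the platform annotation were updated through gene identifiers, and the brightest probe set stood for a gene. limma 3.58.1 (R 4.3.3) compared hypoxia with control on log2(signal + 16) by lmFit and eBayes with a trend and no block. Tests were two-sided, with Benjamini-Hochberg adjusted p-values over 13257 genes. The fit was tested on simulated data, drawn with independent noise in each gene and no array that stood apart. That test does not cover an array like hypoxia 1. Values on every array are given for the 3 genes of each role with the smallest p, Ndufa4, Ndufa4l2, all assembly factor genes and subunit genes that rose, and further genes were chosen after their values were seen. The members and lists were chosen with earlier results of these data known, and the promoter letters were settled after a longer NRF1 form had been counted. The alternatives tried were pseudocounts of 1 and 64, median centring, quantile normalization, a 60% filter or none, all probe sets or a mean over them, no probe sets that can bind related transcripts, other eBayes settings, array weights, a replicate block and leaving out each array. Same-numbered samples did not deviate together (correlations from -0.07 to 0.00), so the numbers were not taken to pair them.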

Additional observations from a re-analysis of the deposited data

Results flagged for a closer look

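In 5 of 88 combinations of an Nduf gene and a group, 1 array lay far from the other 3 of its group by Dixon's gap test. Chance gives about 1 in 20 such groups, and 5.24% of hypoxia and 5.34% of control groups were past the same gap over all genes. Hypoxia 1 stood high in Ndufc1, at a signal of 23550.4 where the other hypoxia arrays had 12806 to 13304, and in Ndufaf6, at 1248 where the others had 447 to 574. Hypoxia 4 stood high in Ndufa8, at 10872 where the others had 8835 to 9094. Control 3 stood high in Ndufc2, at 27324 where the others had 24456 to 24944, and control 2 in Ndufs1, at 14937 where the others had 13548 to 13771. In Ndufa8, Ndufs1, Ndufc1 and Ndufaf6 the groups did not overlap with these arrays included.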

How the results depend on the processing

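Of the 30 Nduf genes that passed, 21 passed in the same direction under all of the 20 alternatives that gave them a value, and none changed sign under any. The 24 subunit genes that fell became 27 after quantile normalization, 18 after median centring and 20 with the replicate block. With that block Ndufb5, Ndufb11, Ndufc2 and Ndufs7 no longer passed. Of all genes 16.9% fell after quantile normalization, 15.9% after median centring and 2300 of 13257 with the replicate block. Leaving out 1 array at a time gave 20 (without hypoxia 2) to 29 (without hypoxia 1), with medians from -0.64 to -0.54, and always 1 that rose. Over all genes 2140 of 13249 fell without hypoxia 2 and 2492 of 13226 without hypoxia 1. For the assembly factor genes leaving out 1 array gave 4 to 5 lower and 1 higher, with medians from -0.64 to -0.55. Without control 1, where 5 fell, 2154 of all 13289 genes fell. The median of the assembly factor genes was -0.50 after median centring, beside 0.04 over all genes. It was -0.80 without probe sets that can bind related transcripts, where 7 genes were tested, beside -0.045 over all genes. Averaging over probe sets left 0 assembly factor genes that rose by limma's adjusted p, where 1687 of all 13257 genes rose. Ndufaf4, at 0.39, then had a limma adjusted p = 0.0692, and 1 assembly factor gene rose at an unadjusted p under 0.05. Leaving out 1 array moved the change of Ndufa6, which did not pass, from -0.34 (without hypoxia 1) to 0.041 (without hypoxia 3). The causes of these shifts were not tested. Bright probe sets may be compressed, and Ndufb4 and Ndufa4l2 were too dim for firm values.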
